A study of Mus musculus with 70 samples.

Results

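The 8 GIMAP genes of the mouse, Gimap1, Gimap3, Gimap4, Gimap5, Gimap6, Gimap7, Gimap8 and Gimap9, were followed as a named family through 14 groups of regulatory T cells (Tregs). They are 8 of 53465 genes in the deposited count table, and all 8 passed a filter on low counts that left 13173 protein-coding genes. The family was selected on the counts per library, scaled to 1000000 (CPM), of Gimap6 and Gimap4, which had been seen low in skin, so levels in skin against other tissues are given as a description without a test.

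The libraries came from 5 male Foxp3YFP-cre mice aged 16.6 to 18.6 weeks, in which Foxp3 drives YFP and Cre, so that Tregs can be sorted by YFP. ST2+ CD44hi and ST2- CD44hi Tregs came from each of 6 tissues: blood, spleen, lungs, colon, skin and visceral adipose tissue (VAT), and ST2- CD44lo Tregs from spleen and lungs only. ST2 is the IL-33 receptor encoded by Il1rl1, and the CD44lo cells are called central Tregs here. Up to 220 cells were sorted per library, and 7 of the libraries used had fewer. Among these the lowest were 55 cells in blood ST2+ and 93 cells in VAT ST2- CD44hi Tregs. Each mouse was sampled once for each group, so a replicate is a mouse, and no mouse received a treatment. Of 70 libraries, 67 held over 1000000 counts and were used, which left 4 for blood ST2+, 3 for colon ST2+ and 5 for each other group.

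GIMAP proteins (GTPases of immunity-associated proteins) bind GTP through a domain called AIG1 and sit largely on intracellular membranes of lymphocytes. They are known for roles in the survival and quiescence of T cells. Loss of Gimap5 causes lymphopenia in rats and mice, and loss of Gimap1 depletes mature lymphocytes. Their genes lie side by side, which makes the family a compact neighbourhood as well as a set of related proteins.

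The members occupy 123.618 kb of chromosome 6 in the GRCm38 build, at chr6:48647234-48770851. In order along the chromosome they are Gimap8 (chr6:48647234-48660875), Gimap9 (chr6:48676129-48679114), Gimap4 (chr6:48684549-48692060), Gimap6 (chr6:48701582-48708225), Gimap7 (chr6:48718621-48724636), Gimap1 (chr6:48739054-48743795), Gimap5 (chr6:48746197-48754210) and Gimap3 (chr6:48764464-48770851). Gimap6 and Gimap3 are on the minus strand and the other members on the plus strand. Merged over transcripts, Gimap8 has 6 exons, Gimap3 has 5 and the other members 3 each.

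Some counts cannot be assigned to 1 member alone. Gimap1 shares 36.0% of its exon bases with Gimap1os on the opposite strand, and the library kit does not mark strand, so reads there cannot be told apart. The predicted gene Gm28053 runs from Gimap7 to Gimap5 on the same strand and overlaps 6.44% of the exon bases of Gimap1, 3.69% of Gimap5 and 3.48% of Gimap7. Gimap3 and Gimap5 are close paralogs, and 6.07% and 5.74% of their 57-base stretches recur in another gene. Levels of Gimap1, Gimap3 and Gimap5 therefore carry more uncertainty than those of Gimap8, Gimap9, Gimap4 and Gimap6, which share no exon bases or 57-base stretches.

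The promoters of the 4 members on which the results turn most are given here, read from RefSeq in the GRCm38.p6 build from 250 bases before to 50 bases after each gene start. Gimap4 differed between ST2+ and ST2- Tregs in skin, Gimap6 between lungs and spleen, Gimap7 was at the lowest level in skin, and Gimap3 kept the highest level there. Each is printed 5′ to 3′ on its own strand, and capitals mark GGAAG or its reverse complement CTTCC, the core letters that ETS factors read. They lie at chr6:48684328-48684627 (Gimap4, plus strand), chr6:48708195-48708494 (Gimap6, minus strand), chr6:48718371-48718670 (Gimap7, plus strand) and chr6:48770802-48771101 (Gimap3, minus strand).
Gimap4: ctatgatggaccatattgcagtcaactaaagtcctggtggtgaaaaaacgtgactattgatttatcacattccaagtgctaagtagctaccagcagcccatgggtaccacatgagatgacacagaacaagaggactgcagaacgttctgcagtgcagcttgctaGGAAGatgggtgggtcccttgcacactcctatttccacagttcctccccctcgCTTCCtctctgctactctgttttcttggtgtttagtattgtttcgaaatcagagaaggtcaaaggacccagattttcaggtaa
Gimap6: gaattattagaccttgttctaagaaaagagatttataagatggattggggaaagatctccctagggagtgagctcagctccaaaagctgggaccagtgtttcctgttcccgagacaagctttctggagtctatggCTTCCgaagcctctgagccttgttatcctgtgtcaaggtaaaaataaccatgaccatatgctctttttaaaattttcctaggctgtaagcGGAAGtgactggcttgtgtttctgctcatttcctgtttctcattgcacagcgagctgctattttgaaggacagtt
Gimap7: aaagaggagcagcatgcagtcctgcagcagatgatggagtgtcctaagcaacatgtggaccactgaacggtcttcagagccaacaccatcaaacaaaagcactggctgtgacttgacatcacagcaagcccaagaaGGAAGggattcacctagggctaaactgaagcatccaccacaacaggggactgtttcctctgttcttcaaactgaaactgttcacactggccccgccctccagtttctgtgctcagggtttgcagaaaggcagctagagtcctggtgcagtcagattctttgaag
Gimap3: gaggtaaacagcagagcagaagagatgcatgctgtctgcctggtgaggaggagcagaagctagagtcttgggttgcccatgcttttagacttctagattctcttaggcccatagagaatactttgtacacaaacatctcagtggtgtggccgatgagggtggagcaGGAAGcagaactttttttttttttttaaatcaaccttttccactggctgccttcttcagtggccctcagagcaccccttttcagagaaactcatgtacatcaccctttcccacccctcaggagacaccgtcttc

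The core occurs in all 8 member promoters, and in 71.1% of 27025 promoters of the same length. The longer form GGAAGT, which contains the core, was found on either strand in Gimap9, Gimap6, Gimap1 and Gimap5, and in 24.1% of all promoters. TGTGGT, read by RUNX factors, was found in Gimap4, Gimap7 and Gimap1 (16.9% of all promoters), and CTTTGA, read by TCF factors, in Gimap4 and Gimap7 (16.2% of all promoters). CACCC, read by Kruppel-like factors, was found in 5 members (56.7% of all promoters), TGTTTAC, read by FOXO factors, in Gimap3 (3.55% of all promoters), and TATAAA in Gimap6 (14.2% of all promoters). These are matches of letters in a window and not bound sites. The member promoters held 2 to 8 CpG dinucleotides, fewer than the median of 7 over all promoters in 7 of 8 members.

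The counts per kept library ran from 1304560 to 2759926 (median 2039002). The T cell and Treg markers (Cd3d, Cd3e, Cd3g, Cd4, Foxp3, Il2ra, Ctla4 and Ikzf2) summed to 2858 to 6241 CPM outside skin and to 4009 to 6427 CPM in skin, and Foxp3 was at 109 CPM or more in every library. Keratinocyte markers (Krt5, Krt14, Krt10 and Krt1) summed to 14.8 to 1124 CPM in skin and to at most 22.9 CPM elsewhere, and the 2 skin libraries of mouse 3 were the highest. Macrophage and monocyte markers (Csf1r, Lyz2, C1qa, C1qb, Adgre1 and Itgam) reached 1036 to 1247 CPM in colon ST2+ libraries, against 23.2 to 193 CPM in colon ST2- CD44hi libraries. Over all libraries the sums were 3.97 to 159 CPM for CD8 T and NK cells, 23.5 to 458 CPM for endothelium, at most 265 CPM for adipocytes, at most 220.5 CPM for lung epithelium and at most 413 CPM for red cells. Of the 4 endothelium markers, 3 were at 0 in all libraries of spleen central (237 to 371 CPM summed), lung central (319 to 405 CPM) and blood ST2+ Tregs. Of the 3 adipocyte markers, 2 were at 0 in all skin ST2- CD44hi libraries, the group with the highest sum. These 2 sums are therefore not read as content of those cells. In bulk libraries fewer cells of a type and less RNA per cell cannot be told apart. Spleen and lung cells were enriched for CD4 T cells on magnetic beads before sorting, blood and spleen were not digested with collagenase, and skin was digested for longer and with more collagenase than lungs, VAT or colon, so that tissue and preparation cannot be told apart.

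Outside skin, all 8 members were detected in every library. The summed level of the 8 genes had group means between 3315 CPM (colon ST2+ CD44hi, SD 222.5, n = 3) and 4688 CPM (lung central Tregs, SD 490, n = 5). Per kilobase of exon, Gimap4, a GTPase that speeds up the death of T cells once apoptosis has begun, was highest at 439 CPM per kb over the 57 libraries outside skin. Gimap3, a membrane-anchored paralog of Gimap5, followed with 399 CPM per kb, and Gimap6, a partner of the autophagy protein GABARAPL2, with 242 CPM per kb. Gimap9, a member with little known function, was at 141 CPM per kb. Gimap7, which forms dimers that switch on its own GTPase activity, was at 139.7 CPM per kb. Gimap1, Gimap5 and Gimap8, the last a long member with several AIG1 domains, were at 119, 68.1 and 55.8 CPM per kb.

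Between the 12 groups without skin, the means of a single member spanned at most 2.72-fold. That widest span belonged to Gimap8, from 104 ± 11.8 CPM in colon ST2+ Tregs (SD, n = 3) to 284 ± 63.8 CPM in VAT ST2- CD44hi Tregs (SD, n = 5). The narrowest belonged to Gimap1, 1.36-fold, from 307 ± 20.5 CPM in colon ST2+ (SD, n = 3) to 417 ± 35.6 CPM in spleen ST2+ Tregs (SD, n = 5). The other 6 members spanned 1.51-fold to 1.81-fold.

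**Figure D1:**
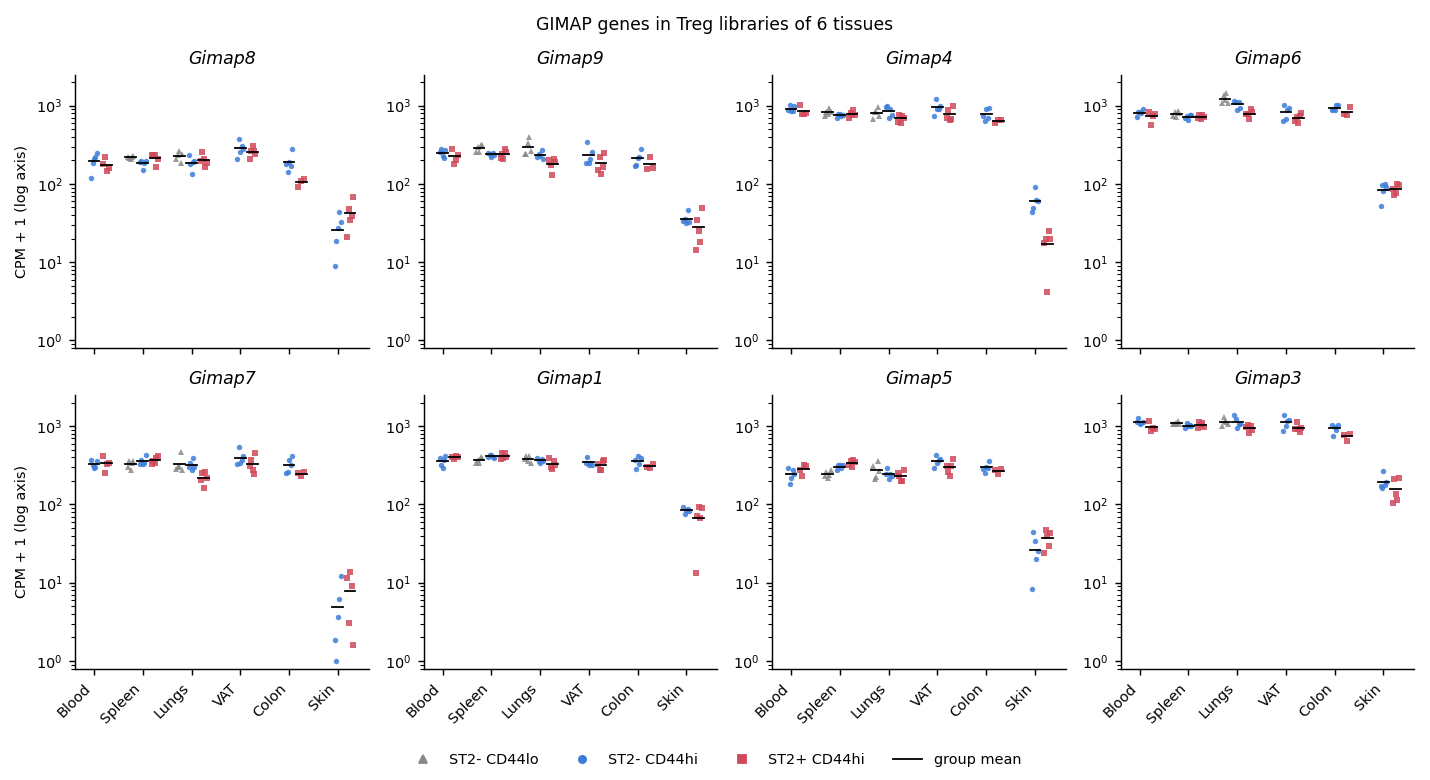
Level of each GIMAP gene in 67 libraries, as CPM + 1 on a log axis, by tissue and population. Each point is 1 mouse and each bar a group mean. All 10 skin libraries lie below all 57 others for all 8 genes. The share of all genes that do so was not counted.

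In skin the whole family was low. Summed over the 8 genes, skin libraries held 435 ± 112 CPM in ST2+ and 509 ± 75.8 CPM in ST2- CD44hi Tregs (SD, n = 5 each). For all 8 members, each of the 10 skin libraries lay below each of the 57 others. The share of all genes without overlap was not counted, so nothing is read from this. In both populations the mean CPM of all 8 was at least 2-fold lower in skin than in each of the 5 other tissues. Over all 13173 genes 3.37% met that description, and since the family was chosen for it, nothing is read from the difference.

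The difference ran from 5.25-fold for Gimap1 to 69.7-fold for Gimap7. Gimap7 was lowest. Its CPM in skin ST2+ libraries was 10.5, 2.06, 12.8, 7.99 and 0.585 in mice 1 to 5, and in skin ST2- CD44hi libraries 0.873, 0, 2.62, 5.17 and 11.1. These rest on 0 to 24 counts, and the count of 0 in mouse 2 allows up to 2.02 CPM (3 counts). Outside skin, Gimap7 ran from 160 to 533 CPM with a median of 327 CPM. On log2 CPM with a prior count of 2, the mean of skin minus that of the other 5 tissues was -6.12 (SD over 5 mice 0.93).

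Gimap4 came next, at a log2 difference of -4.74 (SD over mice 0.35). Its skin libraries ran from 3.20 to 89.7 CPM and the others from 594 to 1224 CPM. Gimap5, a lysosomal GTPase, was at -3.30 (SD 0.68), with 7.42 to 46.6 CPM in skin and 184 to 427 CPM elsewhere. Gimap6 was at -3.26 (SD 0.16), with 50.6 to 99.4 CPM in skin and 574 to 1459 CPM elsewhere. The mice differed least for this gene.

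The other members were closer to the level of other tissues. Gimap9 was at a log2 difference of -2.83 (SD over mice 0.23), Gimap8 at -2.67 (SD 0.59), Gimap3 at -2.55 (SD 0.28) and Gimap1 at -2.39 (SD 0.58). Gimap3 kept 102 to 267 CPM in skin, the highest level of the family there both in CPM and per kilobase. Over all tested genes the same difference had a median of -0.02, and the middle 90% of genes lay between -1.47 and 1.52. The median over the 8 members was -3.04.

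The order of the members changed with the drop. Gimap4, ranked 1 of 8 per kilobase outside skin, ranked 4 over the 10 skin libraries together at 20.75 CPM per kb, behind Gimap3, Gimap1 and Gimap6. Its place differed between the 2 skin populations. In ST2- CD44hi Tregs Gimap4 was at 32.7 CPM per kb, behind Gimap3 (74.8) alone. In ST2+ Tregs it was at 8.82 CPM per kb, between Gimap8 (11.2) and Gimap5 (8.63). Gimap7 ranked 5 outside skin and 8 in skin, at 2.31 CPM per kb.

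Genes around the cluster were compared on the same scale, to show whether the low level in skin reached beyond the family. Of 22 other protein-coding genes that start within 500 kb of it, 16 passed the filter, and their median log2 difference was -0.02, with 9 of 16 below 0. The 4 that were at least 2-fold lower lay within the cluster or on its Gimap8 side. The share of all genes at least 2-fold lower on this scale was not counted, so nothing is read from the number 4. Gm28053, the predicted gene that overlaps Gimap7, Gimap1 and Gimap5, was at -3.41. Some of its exon bases are shared with members, and which bases its counts came from was not examined. AI854703, 20.5 kb from the cluster, was at -2.83, with 0.792 ± 1.90 CPM in skin (SD, n = 10). Its means elsewhere ran from 4.57 ± 5.14 CPM in lungs (SD, n = 10) to 20.8 ± 8.66 CPM in colon (SD, n = 8). Lrrc61, 92.4 kb away, was at -2.26 (8.51 ± 6.15 CPM in skin), and Zfp775, 45.2 kb away, at -1.07. Tmem176a and Tmem176b, ion channel-like membrane proteins 70.1 and 70.6 kb beyond Gimap3, were at 0.09 and 0.41.

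**Figure D2:**
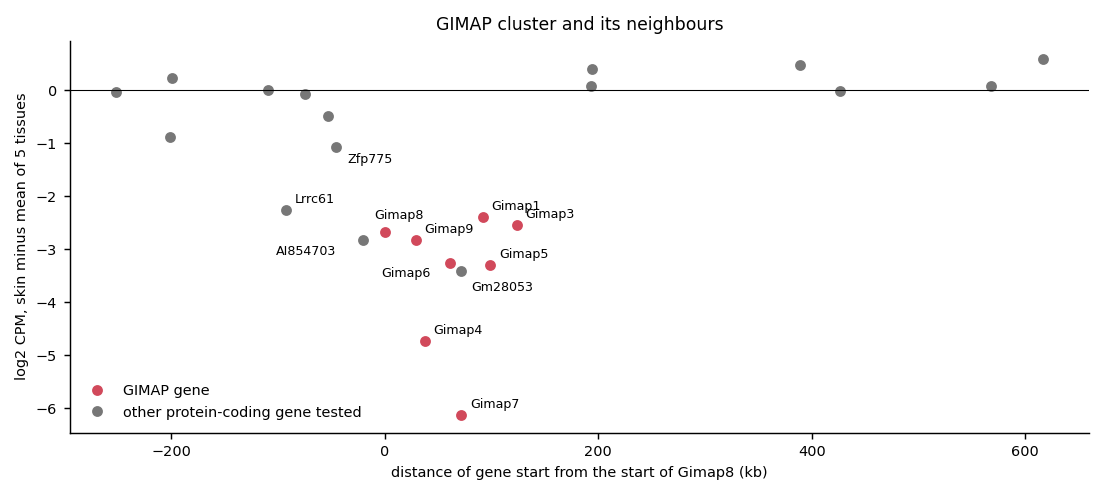
Log2 CPM in skin minus the mean of 5 other tissues, against the distance of each gene start from that of Gimap8 in kb. Red points are the 8 GIMAP genes and grey points 16 other protein-coding genes. The GIMAP genes lie between -6.12 and -2.39, and the neighbours from Gimap3 onwards lie between -0.01 and 0.60.

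Skin also gave the 1 ST2 difference within the family, a contrast that did not enter the choice of members. Gimap4 was lower in ST2+ than in ST2- CD44hi Tregs of skin in 5 of 5 mice. Its CPM in ST2+ libraries was 16.6, 18.5, 3.20, 24.0 and 18.7 in mice 1 to 5. In ST2- CD44hi libraries of the same mice it was 42.4, 47.9, 89.7, 61.4 and 58.8. The 2 sets did not overlap, and mouse 3 held both the lowest and the highest value. The ST2+ libraries had 5 to 38 counts of the gene and the ST2- libraries 71 to 137.

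The means were 16.2 ± 7.77 CPM and 60.0 ± 18.3 CPM (SD, n = 5 each), a log2 fold change of -1.90 ± 0.20 (SE) with an adjusted p of 3.65e-09 in edgeR's quasi-likelihood test over 14 groups. That SE and adjusted p rest on a spread shared by all 14 groups and do not measure the spread within skin alone. Differentially expressed genes (DEGs) had to pass both an adjusted p of 0.05 or less (Benjamini-Hochberg) and a 1.5-fold change, and 0.228% of 13173 genes did so in this comparison. An exact permutation test of the 10 CPM values, two-sided, gave p = 0.00794, the smallest that 5 against 5 can give, but treats libraries of 1 mouse as unrelated. Permuted within the 5 mice, the exact p was 0.0625, the smallest that 5 pairs can give. Both follow from the lack of overlap given above and add nothing to it. The gene was picked as the 1 call among 48 member by tissue comparisons. The call was lost when only skin libraries entered the fit (adjusted p = 0.21, edgeR, 5 DEGs in all) and in limma's voom with quality weights, the tool of the study (adjusted p = 0.181, or 0.164 with a mouse block). Without mouse 3 the log2 fold change was -1.45, with an edgeR adjusted p of 3.86e-07 that again rests on the spread shared by 14 groups.

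Marker lists of other cells were compared between the same libraries. Keratinocyte markers summed to 42.9 to 1124 CPM in skin ST2+ and to 14.8 to 1098 CPM in skin ST2- libraries, fibroblast markers (Col1a1, Col1a2, Col3a1 and Dcn) to 2.19 to 84.2 and 40.9 to 738 CPM, and macrophage markers to 4.80 to 28.9 and 0 to 116 CPM. The B cell genes Cd79a, Cd79b and Ms4a1 summed to 9.61 to 30.2 CPM in skin ST2+ and to 3.93 to 7.86 CPM in skin ST2- libraries, higher in ST2+ with no overlap. T cell and Treg markers summed to 4616 to 6427 and 4009 to 6235 CPM. The part of these lists in the Gimap4 difference was not tested. Without the 2 skin libraries of mouse 3, those with most keratinocyte RNA, the Gimap4 log2 fold change was -1.45. Its edgeR adjusted p was 3.37e-08, also with the spread shared by all groups. The skin libraries left are the same as without mouse 3 above, so this is not a second check.

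The other 7 members did not pass the test in skin, and they leaned both ways. Gimap8 was at 41.4 ± 17.6 CPM in ST2+ and 25.1 ± 13.1 CPM in ST2- CD44hi Tregs (SD, n = 5 each; log2 fold change 0.75 ± 0.25 SE, edgeR adjusted p = 0.286). Gimap5 was higher in ST2+ libraries in 5 of 5 mice, at 35.8 ± 9.91 against 25.5 ± 13.5 CPM (log2 fold change 0.51 ± 0.22 SE, edgeR adjusted p = 0.453). Gimap7 had a log2 fold change of 0.85 ± 0.44 SE (edgeR adjusted p = 0.627), on the few counts given above. The values for Gimap6, Gimap9, Gimap3 and Gimap1 were 0.05, -0.35, -0.31 and -0.35.

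The ST2 difference of Gimap4 itself differed between tissues. Tested over the 6 tissues together, the interaction of tissue and ST2 had an adjusted p of 4.57e-05 for Gimap4 in edgeR, where 1.40% of all genes had one of at most 0.05. Outside skin the log2 fold change of Gimap4 was smaller in size, at 0.05 in spleen, -0.10 in blood, -0.30 in both VAT and colon and -0.33 in lungs. The adjusted p of the interaction was 0.0754 for Gimap8 and 0.443 or more for the other 6 members. In voom with quality weights it was 0.106 for Gimap4. The edgeR test of the interaction also used the spread shared by all groups.

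**Figure D3:**
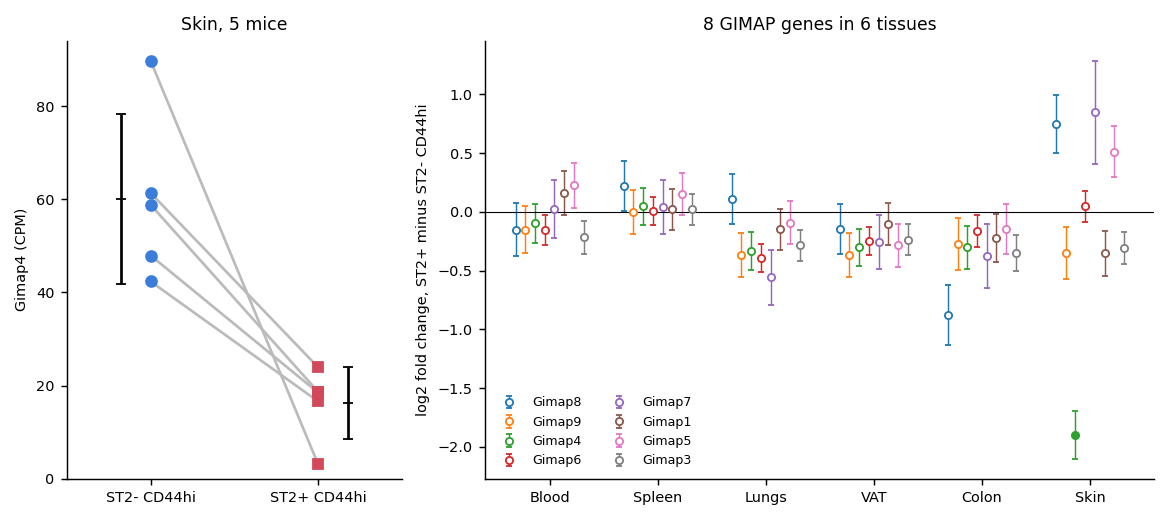
Left, Gimap4 CPM in skin, with a line joining the ST2- CD44hi and ST2+ CD44hi libraries of each of 5 mice and the mean ± SD beside them. Right, log2 fold change of ST2+ against ST2- CD44hi Tregs with its SE from the fit over 14 groups, for 8 GIMAP genes in 6 tissues. The 1 filled point is the DEG, Gimap4 in skin at -1.90.

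In the other 5 tissues no member was a DEG between ST2+ and ST2- CD44hi Tregs. Across all 6 tissues that made 1 DEG of 48 member by tissue comparisons in edgeR, with 11 of 48 at an unadjusted p under 0.05 (10.8% over all genes). Over all genes, 1.43% of gene by tissue comparisons were DEGs. By tissue the share was 0.0683% in colon, 0.349% in spleen, 0.752% in lungs, 3.14% in VAT and 4.07% in blood. DESeq2 likewise called 1 of 48. Voom with quality weights also called 1, but that was Gimap8 in colon, and with a mouse block it called Gimap8 in colon and Gimap7 in lungs.

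The direction of values that did not pass the test varied with the tissue. In VAT and in colon all 8 members had a log2 fold change below 0, with medians of -0.25 and -0.29, against medians over all genes of -0.01 and 0.03. In lungs 7 of 8 were below 0, with a median of -0.31 against 0 over all genes. In spleen all 8 were above 0, with a median of 0.03, and in blood 3 were above and 5 below 0, with a median of -0.12, against 0 over all genes in both. Lung Gimap7 was at 202, 249.6, 159.8, 260.4 and 217 CPM in ST2+ libraries of mice 1 to 5. In ST2- CD44hi libraries it was at 302, 333, 276, 389 and 301 CPM. The 2 sets did not overlap, but the log2 fold change of -0.56 ± 0.23 (SE) had an edgeR adjusted p of 0.36. Colon Gimap8 had the lowest value in colon, -0.88 ± 0.26 (SE), with an edgeR adjusted p of 0.274.

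The state of the cells, effector against central, was compared in spleen and lungs. No member was a DEG between ST2- CD44hi and CD44lo Tregs in either tissue by edgeR, 0 of 16, with 1 of 16 at an unadjusted p under 0.05 (16.8% over all genes). DESeq2 and voom also called 0 of 16. Over all genes 5.27% of gene by tissue comparisons were DEGs, 4.97% in spleen and 5.56% in lungs. The log2 fold changes ran from -0.26 (Gimap9) to 0.32 (Gimap5) in spleen and from -0.35 (Gimap9) to 0.08 (Gimap4) in lungs. The value at an unadjusted p under 0.05 was that of Gimap6 in lungs, -0.24 ± 0.12 (SE, edgeR adjusted p = 0.263). None of the 8 differed in this contrast between lungs and spleen (smallest adjusted p 0.835 in edgeR, where 0.137% of genes passed).

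Gimap6 differed between lungs and spleen among central Tregs. It was at 1074, 1360.0, 1166, 1459 and 1079.9 CPM in lung CD44lo libraries of mice 1 to 5. In spleen libraries of the same mice it was at 742, 827, 711, 842 and 806 CPM. All lung values lay above all spleen values. The means were 1228 ± 173 and 786 ± 56.6 CPM (SD, n = 5 each), a log2 fold change of 0.64 ± 0.12 (SE) with an adjusted p of 0.000168 in edgeR. The level was higher in lungs in 5 of 5 mice. The exact permutation test of the CPM values gave p = 0.00794, and within mice 0.0625, the smallest possible for each. Both follow from the lack of overlap and add nothing to it. Gimap6 was the 1 DEG among the 8 members, where 2.32% of all genes were higher DEGs in lungs. The other 7 had log2 fold changes between -0.02 and 0.17.

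The same gene was also compared between lungs and spleen in effector Tregs. In ST2- CD44hi Tregs it was at 1158, 1106, 882, 1099 and 940.4 CPM in lungs and at 689, 747, 662, 751 and 755 CPM in spleen. The log2 fold change of 0.52 ± 0.12 (SE) had an edgeR adjusted p of 0.00252 but stayed under 1.5-fold. It was not told apart from that in central Tregs, with a difference between them of -0.12 ± 0.17 (SE, edgeR adjusted p = 0.9999). In ST2+ CD44hi Tregs the means were 791 ± 78.4 and 724 ± 42.3 CPM (SD, n = 5 each), and the adjusted p was not at most 0.05. Colon ST2- CD44hi Tregs were also above spleen, at 940.0 ± 71.2 against 721 ± 42.4 CPM (SD, n = 5 each; log2 fold change 0.38, edgeR adjusted p = 0.025). These comparisons share the spleen libraries.

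Gimap8 was lower in colon ST2+ Tregs than in ST2+ Tregs of spleen, lungs and VAT. The 3 colon libraries held 91.0, 108 and 114 CPM (mice 1, 3 and 4). Spleen libraries held 234, 231, 232, 165 and 205 CPM, lung libraries 193, 258, 205, 164 and 182 CPM, and VAT libraries 209.5, 266, 305, 265 and 237 CPM in mice 1 to 5. All colon values lay below all values of these 3 tissues.

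Colon was below VAT by a log2 fold change of -1.30 ± 0.26 (SE, edgeR adjusted p = 0.00131), below spleen by -1.04 ± 0.26 (adjusted p = 0.00523) and below lungs by -0.95 ± 0.26 (adjusted p = 0.025). Lower DEGs made up 0.691%, 1.84% and 1.15% of all genes in these comparisons. Against blood, with 145 to 217 CPM, the value was -0.75 with an edgeR adjusted p of 0.0553. The exact permutation test gave p = 0.0357 for each of the 3 differences called, the smallest that 3 against 5 can give. Within the 3 mice with both libraries the exact p was 0.25, the smallest that 3 pairs can give. Both follow from the lack of overlap and add nothing to it. The 3 differences were picked as calls among 160 member by comparison values. All 3 share the same 3 colon ST2+ libraries, so they are not separate findings. The call against VAT and that against spleen were lost without mouse 3 (edgeR adjusted p = 0.0643 and 0.073), and that against lungs without mouse 1, 2, 3 or 4 (0.0523 to 0.195).

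The colon ST2+ libraries also held transcripts of other cells. Besides the macrophage markers above, the B cell genes Cd79a, Cd79b and Ms4a1 summed to 67.7, 335 and 361 CPM there, against 114 to 209 CPM in colon ST2- CD44hi and 66.3 to 155 CPM in spleen ST2+ libraries, with overlap. Fibroblast markers summed to 307 to 965 CPM in colon ST2+ libraries (6.95 to 677 CPM in colon ST2- CD44hi) and gut epithelium markers (Epcam, Krt8, Krt20 and Lgals4) to 261 to 1342 CPM (57.9 to 1152 CPM). T cell and Treg markers summed to 3984 to 4735 CPM in them, against 3560 to 4444 CPM in spleen ST2+ libraries. In colon ST2- CD44hi Tregs, with 23.2 to 193 CPM of macrophage markers, Gimap8 was at 191 ± 50.2 CPM (SD, n = 5), close to spleen at 183 ± 18.2 CPM. The part of these cells in the Gimap8 difference was not tested.

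Gimap7 was lower in lung than in spleen ST2+ Tregs. Spleen ST2+ libraries held 332, 363, 336, 393 and 413 CPM in mice 1 to 5, all above the lung ST2+ values given above. The means were 218 ± 40.1 CPM in lungs and 367 ± 35.6 CPM in spleen (SD, n = 5 each), a log2 fold change of -0.76 ± 0.23 (SE) with an edgeR adjusted p of 0.038, where 1.45% of all genes were lower DEGs. The exact permutation test gave p = 0.00794, and within mice 0.0625. Both follow from the lack of overlap and add nothing to it. This difference was picked as 1 of 4 calls among 160 member by comparison values. The call was lost with all 70 libraries (adjusted p = 0.111) and without mouse 1, 3, 4 or 5 (0.0573 to 0.175).

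**Figure D4:**
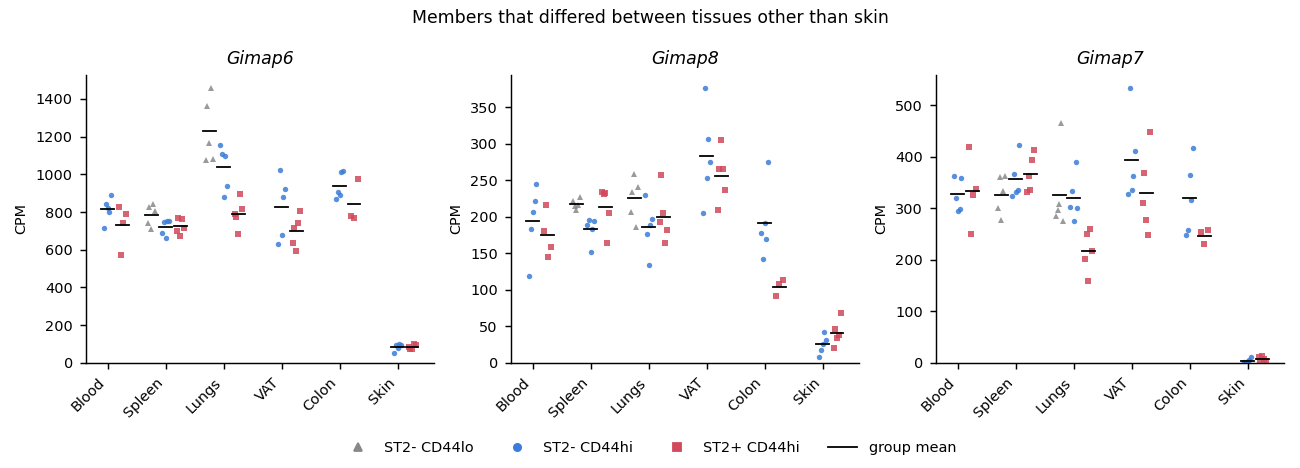
CPM of Gimap6, Gimap8 and Gimap7 by tissue and population, with 1 point per mouse and a bar at each group mean. Gimap6 is highest in lung central Tregs (mean 1228 CPM), Gimap8 is lowest outside skin in colon ST2+ Tregs (mean 104 CPM), and Gimap7 is lowest outside skin in lung ST2+ Tregs (mean 218 CPM).

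Over the 20 comparisons between blood, spleen, lungs, VAT and colon, 4 of 160 member by comparison values were DEGs, all lower and all named above. The share over all genes was 6.48%. The Gimap8 calls among the 4 share the same colon ST2+ libraries. A further 4 had an adjusted p of at most 0.05 with a change under 1.5-fold, which made 8 of 160 at that adjusted p (7.29% over all genes). They were the values of Gimap6 above, Gimap3 in colon against spleen ST2+ Tregs (-0.49, edgeR adjusted p = 0.0306) and Gimap5 in VAT against blood ST2- CD44hi Tregs (0.58, edgeR adjusted p = 0.028).

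Ordered by mean CPM within a population, none of the 64 steps from a tissue to the next lower one had an adjusted p of at most 0.05 (smallest 0.0553, edgeR). In ST2- CD44hi Tregs VAT was highest for 4 of 8 members, and in ST2+ Tregs spleen was highest for 5 of 8. Which of 2 neighbouring tissues was higher was therefore not resolved for any member. The VAT ST2- CD44hi libraries of mice 2 to 5 came from 93, 192, 118 and 135 sorted cells.

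The members were compared with each other across libraries. Over all 67 libraries the 28 pairs of members had a median Pearson r of 0.92 on log2 CPM (0.86 to 0.97). Over the 57 libraries without skin the median was 0.42, from 0.00 for Gimap6 with Gimap5 to 0.78 for Gimap4 with Gimap3. After the group means were removed it was 0.46, from -0.05 for Gimap8 with Gimap5 to 0.81 for Gimap9 with Gimap7. These are descriptions, and libraries of 1 mouse or 1 depth are shared by all genes. The r over all 67 libraries includes the low skin levels for which the family was chosen. No r between pairs of other genes is given beside these, so none is read as a trait of the family.

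Genes of T cell quiescence and recirculation were set beside the family. In skin 6 of 11 were below the mean of the other tissues and 4 were at least 2-fold lower, with a median log2 difference of -0.17. The share of all genes at least 2-fold lower on this scale was not counted, so nothing is read from these counts. The transcription factors Tcf7 and Lef1 were at -3.26 and -2.55, Bach2 at -1.84 and S1pr1, the receptor for exit from lymphoid tissue, at -1.47. Ccr7, Il7r, Foxp1, Foxo1 and Ets1 were between 0.21 and 0.56, and Klf2 and Satb1 were at -0.98 and -0.17.

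Several of the 11 genes passed the test between effector and central Tregs. In spleen 5 of 11 were lower DEGs in ST2- CD44hi Tregs (0.638% of all genes) and 0 higher, among them Satb1 (-2.21), Lef1 (-1.02) and Klf2 (-0.92). In lungs 4 of 11 were lower (0.714% of all genes), Satb1 (-1.70), Bach2 (-1.62), Lef1 (-0.76) and Foxp1 (-0.70). Between ST2+ and ST2- CD44hi Tregs, 6 of 11 were lower DEGs in blood (1.72% of all genes), 5 in VAT (1.86%), 3 in lungs (0.258%), 1 in colon (0.038%) and 0 in spleen and skin. Higher DEGs were 1 of 11 in each of blood (2.35% of all genes), VAT (1.28%) and spleen (0.342%). In central Tregs of lungs against spleen 3 of 11 were higher DEGs (2.32% of all genes), Il7r (1.29), Klf2 (1.04) and Ets1 (0.68), beside Gimap6.

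Genes of the BCL2 family and of autophagy, some of whose products bind GIMAP proteins, were also compared. In skin Bcl2, the survival factor of resting T cells, was at a log2 difference of -4.06 (14.3 ± 9.60 CPM in skin, SD, n = 10, and 344 ± 86.5 CPM in spleen, SD, n = 10). Its relative Bcl2l1, which encodes BCL-XL, was at 2.41 (422.5 ± 59.5 CPM in skin and 80.8 ± 22.4 CPM in spleen). Bcl2l11, which encodes the death protein BIM, was at 1.11 and Bad at -0.86. Bax, Gsk3b and the autophagy genes Gabarapl2, Gabarap and Map1lc3b were between -0.02 and 0.45. Over the 9 genes the median was 0.08.

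Of these 9, Bcl2 was a lower DEG in ST2+ Tregs of blood (-2.24) and VAT (-0.96) and in effector Tregs of spleen (-0.96) and lungs (-0.97). Bcl2l11 was a lower DEG in ST2+ Tregs of blood (-2.49) and effector Tregs of lungs (-1.76), and a higher DEG in lung central Tregs against spleen (1.94). The other 7 were DEGs in none of the 9 comparisons of ST2, CD44 state or central Tregs. Of the 16 neighbours, Tmem176a (4.98) and Tmem176b (3.84) were higher DEGs in lung ST2- CD44hi than in central Tregs, and Tra2a (0.85), a splicing factor, in lung against spleen central Tregs.

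Ranked by Pearson r of group means with the mean profile of the members, the 5 most alike genes over 14 groups were Rbks (0.98), Itga4 (0.98), Trim14 (0.97), Acp5 (0.97) and Inpp5k (0.97). They encode ribokinase, integrin alpha 4, a tripartite motif protein, an acid phosphatase and an inositol polyphosphate phosphatase. Itga4 was at 11.1 ± 8.86 CPM in skin (SD, n = 10) and 536 ± 168 CPM in the other libraries (SD, n = 57). Over all other genes 221 had an r over 0.9, or 1.68%. Which genes ranked first varied with the measure. By Spearman's rho 0 of these 5 were among the 5 most alike, and with 1 mouse left out 2 to 4 of them were. Without the 2 skin groups the r of these 5 dropped to between 0.10 and 0.55.

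Over the 12 groups without skin the 5 most alike genes were others, Mocs3 (0.90), Seh1l (0.88), Urb1 (0.88), Pgs1 (0.87) and Gm12355 (0.86), and 0 genes had an r over 0.9. Mocs3 acts in sulphur transfer, Seh1l in the nuclear pore, Urb1 in ribosome assembly and Pgs1 in lipid synthesis of mitochondria. Their log2 differences in skin were -0.34 to 0.64.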

How the data were processed

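RNA from sorted Tregs was amplified with SMART-Seq v4 and made into Nextera XT libraries. The deposited table holds raw counts per gene, which the authors made by trimming 58-base single reads, aligning them with STAR to GRCm38 and counting with HTSeq-count. For counting mode and strand setting, the sources used here give no value. No count column was left unused. Of 70 libraries, 3 with 3582 to 488666 counts were left out (blood ST2+ mouse 1, colon ST2+ mice 2 and 5).

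Testing was limited to protein-coding genes that reached 1 CPM in 10% or more of kept libraries. CPM is scaled to 1000000 counts of these genes after TMM. Groups were compared with edgeR 4.0.16 quasi-likelihood tests (R 4.3.3) in 1 fit of 14 groups, with Benjamini-Hochberg adjustment over 13173 genes. Interactions were called at an adjusted p of at most 0.05. The code was tested on simulated data with 200 changed genes of all levels in spleen ST2+ against ST2- CD44hi libraries. There edgeR recovered 25% of 2-fold and 51% of 4-fold changes, with 2 false calls. The rate at the levels of the GIMAP genes was not measured on its own. A comparison without a DEG is therefore not evidence of equal levels. Alternatives used DESeq2 1.42.0, limma 3.58.1 voom, other scaling, filters, libraries and covariates, and each mouse left out. Skin levels were described as log2 CPM (prior count 2) averaged per tissue and mouse. Summaries and plots used Python 3.11.15, numpy 2.4.6, pandas 2.3.3 and matplotlib 3.10.9. All 8 members are named, with the genes of 3 lists (quiescence and recirculation, partners, flanking genes), those most alike in profile, and marker lists. The members and lists were chosen with earlier results of these data known.

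Same-numbered libraries come from 1 mouse, so the numbers pair the samples. Over 7942 genes, deviations from group means of 27 such pairs had a mean r of 0.0933 (lowest 0.00733, 10 above 0.1), against -0.0220 between mice. The floor of a 0 count covers counting error only. Results for 1 gene of the quiescence list, 1 of the B cell markers and 1 marker list are not reported here.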

Additional observations from a re-analysis of the deposited data

Results flagged for a closer look

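A library far from the others of its group by Dixon's test was seen in 7 of 104 groups of a member (8 groups of 3 were not tested), and chance alone flags about 1 in 20. Gimap8 in spleen ST2- CD44hi Tregs was at 151.7 CPM in mouse 3 and at 183 to 196 CPM in the others. Gimap9 in skin ST2- CD44hi Tregs was at 45.1 CPM in mouse 4 and at 30.8 to 34.4 CPM in the others. Gimap4 in blood ST2+ Tregs was at 1029 CPM in mouse 2 and at 782 to 817 CPM in the others. Gimap7 in lung central Tregs was at 465.7 CPM in mouse 4 and at 276 to 308 CPM in the others. Gimap1 in VAT ST2- CD44hi Tregs was at 404.7 CPM in mouse 2 and at 318 to 340.1 CPM in the others. Gimap3 in skin ST2- CD44hi Tregs was at 266.5 CPM in mouse 3 and at 160.6 to 190.03 CPM in the others. Gimap3 in spleen central Tregs was at 1173 CPM in mouse 4 and at 1052 to 1087 CPM in the others.

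The ST2 difference of Gimap4 differed between tissues, with an adjusted p of 4.57e-05 for the interaction of tissue and ST2 in edgeR. Under the alternatives it ran from 2.5e-12 (DESeq2) to 0.106 (voom with quality weights).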

How the results depend on the processing

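Under all alternatives run, the skin difference of each member, the absence of a DEG between effector and central Tregs, and the Gimap6 difference between lung and spleen central Tregs kept their direction and their side of the threshold. The median skin difference of the members ran from -3.19 (no TMM factors) to -2.89 (without mouse 1), while the median over all genes moved from -0.02 to -0.13 without TMM factors and to 0.11 with all 70 libraries. The 1 ST2 call became 0 in fits of only the groups compared, 2 with the replicate block in voom, and 1 to 2 with a mouse left out (without mouse 5, Gimap7 in skin was also called). With the replicate block in edgeR that count was 1. The 4 calls between tissues became 9 in DESeq2, 7 in voom, 7 with the replicate block in voom, 5 with the replicate block in edgeR, and 0 to 8 with a mouse left out (0 without mouse 3, 2 without mouse 4, 8 without mouse 1). The 1 interaction of tissue and ST2 became 2 in DESeq2 and 1 to 2 with a mouse left out, and in voom it was Gimap8 and not Gimap4. The median r of the 5 genes most alike, 0.973, was 0.739 as Spearman's rho and 0.474 without the skin groups. Of 241 member comparisons not called, 14 were called in some alternative, mostly for Gimap8 and Gimap7. Leaving out the 2 skin libraries of mouse 3 was chosen after seeing the data, and it changed no call. Calls over all genes moved with the setting too. In skin, ST2 DEGs numbered 30 in the main fit, 102 in DESeq2 and 58 in voom with quality weights. Fits of only the groups compared gave 5. Shares over all genes between tissues under each alternative are not given here. The changed counts are therefore not read as results about the members. The cause of all these changes was not tested. Skin libraries gave 0 to 24 counts of Gimap7, so its depth limits any comparison within skin.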
